A study of Mus musculus with 27 samples.

Results

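The genes of the ER lumen chaperone system followed here in mouse liver numbered 10: Hspa5, Hsp90b1, Hyou1, Sdf2l1, Dnajb9, Dnajb11, Dnajc3, Manf, Creld2 and Sil1. They were taken by name from the deposited matrix of normalised read counts. All 10 were found among its 45706 genes, and all 10 were among the 15932 that passed the filter on low values (at least 10 in at least 3 libraries) and were tested. The study collected liver from wild-type mice, strain given as C57/BLN6, after 16 h without food, and sequenced mRNA libraries. Each of 9 groups held 3 libraries, 27 in all. The fasted group was taken at the end of the 16 h. The 4 refed groups then had food for 30, 60, 120 or 240 min, and the 4 caged food groups were given caged food, that is food that could be sensed but not eaten, for the same times. Every group therefore shared the 16 h fast, and both kinds of food group were compared with the same fasted livers. In the caged food groups the fast ran on for these added times. Perceiving food and a longer fast therefore cannot be told apart in their comparison with fasted. Refed against caged food likewise sets eating against a longer fast. The part of a later collection in any food group was not tested. The age and sex of the mice were not given in the sources used here. The comparisons ask how the liver's chaperone transcripts changed when food was eaten, when it was only perceived, and whether the 2 differed at each time.

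The ER is where a hepatocyte folds the plasma proteins it secretes. BiP, the product of Hspa5, is the Hsp70 chaperone of its lumen. It binds unfolded chains in an ATP cycle that J-domain proteins such as those of Dnajb9, Dnajb11 and Dnajc3 drive forward and that the nucleotide exchange factors of Hyou1 (GRP170) and Sil1 reset. Hsp90b1 encodes GRP94, the Hsp90 of the lumen. Sdf2l1 encodes a partner of the Dnajb11 protein, and Manf and Creld2 encode small soluble ER proteins of which the first binds BiP. Transcription of many of these genes is known to rise in the unfolded protein response, through the factors ATF6 and XBP1 acting on promoter elements called ERSE.

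The promoters are shown because members of the set share that element. RefSeq promoter windows on GRCm38.p6, from 250 bases before to 50 after the gene start, were given for 7 of the 10 members (Hspa5, Hsp90b1, Sdf2l1, Dnajb9, Dnajb11, Dnajc3 and Creld2). The ERSE, that is CCAAT and CCACG with 9 bases of any kind between them, was searched on both strands and found in 4 of the 7, against 0.119% of the 32851 windows of all genes. Below are the 250 bases before the RefSeq start of those 4 genes, written 5′ to 3′ on the gene's own strand. Gene coordinates given further on are GENCODE M21 bounds, which differ from the RefSeq start in Hspa5, Hsp90b1 and Dnajc3. For Hspa5 the M21 bounds begin at 34771970, inside this stretch. Distances here are to the RefSeq start. Capitals mark the fixed letters of the element, which read CGTGG and then ATTGG where it lies on the opposite strand.
Hspa5, chr2:34771840-34772089, plus strand: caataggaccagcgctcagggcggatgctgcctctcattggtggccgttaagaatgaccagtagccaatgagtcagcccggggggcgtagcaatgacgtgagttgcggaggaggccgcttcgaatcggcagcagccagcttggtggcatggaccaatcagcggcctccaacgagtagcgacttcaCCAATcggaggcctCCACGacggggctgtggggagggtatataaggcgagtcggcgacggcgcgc
Hsp90b1, chr10:86705445-86705694, minus strand: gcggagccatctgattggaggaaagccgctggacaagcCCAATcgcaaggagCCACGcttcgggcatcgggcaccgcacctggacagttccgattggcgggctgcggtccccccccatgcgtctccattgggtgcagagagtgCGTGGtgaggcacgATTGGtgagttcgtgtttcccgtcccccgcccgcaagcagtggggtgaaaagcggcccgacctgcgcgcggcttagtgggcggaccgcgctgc
Dnajc3, chr14:118937682-118937931, plus strand: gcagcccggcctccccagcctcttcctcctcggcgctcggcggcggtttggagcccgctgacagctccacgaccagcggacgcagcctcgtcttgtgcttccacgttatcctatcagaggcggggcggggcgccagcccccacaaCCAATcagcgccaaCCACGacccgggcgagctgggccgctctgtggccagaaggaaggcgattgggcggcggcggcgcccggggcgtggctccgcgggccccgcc
Creld2, chr15:88819396-88819645, plus strand: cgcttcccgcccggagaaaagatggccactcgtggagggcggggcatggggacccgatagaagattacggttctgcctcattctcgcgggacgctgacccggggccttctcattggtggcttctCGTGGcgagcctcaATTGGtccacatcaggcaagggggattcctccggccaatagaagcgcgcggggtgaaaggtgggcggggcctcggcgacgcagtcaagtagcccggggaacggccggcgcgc
The element began 65 bases before the start in Hspa5, at 105 bases in Dnajc3 and at 126 bases in Creld2, and Hsp90b1 held it at 212 and at 107 bases. In Dnajb11 the related ERSE-II, ATTGG and CCACG with 1 base of any kind between them, lay at base 8 after the start (chr16:22857852-22857862, plus strand), in a stretch shown with its neighbouring bases.
Dnajb11: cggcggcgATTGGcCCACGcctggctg
ERSE-II occurred in 0.0365% of all windows. The windows of Sdf2l1 and Dnajb9 held neither form. The exact XBP1-type letters TGACGTGG, found in 0.676% of all windows, were in none of the 7. The Hspa5 sequence above holds tgacgtga, which differs in the last letter and was not searched for. These are matches of letters only, and an imperfect copy would not be counted.

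The 27 libraries were similar in their sums after scaling, which ran from 40654573 to 50037562 normalised counts. The depth estimated from the spacing of low values differed more, from 25.5 to 52.5 M reads. The lowest depths were at 240 min, at 28.9 M in refed replicate 3 and at 31.2 and 25.5 M in caged food replicates 2 and 3. Refed replicates 1 and 2 of that time were at 49.0 and 42.3 M, and caged food replicate 1 was at 43.9 M. On simulated data the estimate was off by up to 5.99%. It fitted the 3 lowest libraries less well (deviance 1671, 2466 and 2658) than the other 240 min ones (302, 204 and 277). A higher deviance is a worse fit, so these low depths are rough. The part of depth in the member values was not tested. All 8 hepatocyte markers, Alb, Apoa1, Ttr and Cps1 among them, were above 0 in every library. At 240 min, 2 libraries carry conflicting labels: a library titled as caged food is described as refed in its treatment field, and a library titled as refed is described as caged food. They were grouped by title, as caged food replicate 1 and refed replicate 3. Their Hspa5 values were 25342 and 76420 normalised counts. The first lay with the other caged food livers and the second above every fasted and caged food liver. Hspa5 is itself a member, so these values cannot decide which label is right. Refed replicate 3 was the lowest of the 3 refed 240 min libraries for all 10 members. The log2 changes at 240 min are given with and without these 2 libraries. Caged food 60 min replicate 2 stood apart as well: its 7 Kupffer cell markers summed to 32714 normalised counts against at most 20962 in any other library, and its 8 leukocyte markers to 2338 against at most 1039. Because whole liver was sequenced, fewer cells of a type and less RNA per cell cannot be told apart. Nothing beyond the statement of 3 biological replicates ties each library to a separate animal, and the p-values measure the spread between these libraries.

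Hspa5 (ENSMUSG00000026864, chr2:34771970-34777547, GRCm38) rose stepwise with refeeding. The fasted livers held 21580, 29690 and 27790 normalised counts. After 30 min of refeeding the values were 31613, 36470 and 26939, after 60 min 52684, 45100 and 52536, and after 120 min 76275, 106102 and 86744. At 240 min they were 149335, 147147 and 76420. From 60 min on, every refed liver lay above every fasted one. Caged food livers held 24156, 25360 and 25047 at 30 min, 34443, 54080 and 31038 at 60 min, 28797, 31619 and 24097 at 120 min, and 25342, 26498 and 35581 at 240 min. The 60 min value of 54080, from replicate 2, was the highest of the 15 fasted and caged food libraries and exceeded all 3 refed livers of that time. On the scale of log2(normalised count + 1), used for all tests here with limma, the change from fasted was 0.94 ± 0.22 at refed 60 min (SE, n = 3 against 3, adjusted p = 0.00586). It was 1.77 ± 0.22 at 120 min (adjusted p = 8.31e-06) and 2.19 ± 0.22 at 240 min (adjusted p = 1.93e-07), a ratio of 4.55. Without the libraries of conflicting labels the last change was 2.51 ± 0.20. BiP mRNA was 0.0589% ± 0.0083 of all normalised counts in the fasted livers and 0.293% ± 0.095 at refed 240 min (SD, n = 3).

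The 2 nucleotide exchange factors of BiP parted. Hyou1 (ENSMUSG00000032115, chr9:44379490-44392369) followed Hspa5, while Sil1 (ENSMUSG00000024357) did not rise. Hyou1 was at 4598, 6223 and 5705 normalised counts in the fasted livers, at 11214, 9649 and 10185 after 60 min of refeeding, and at 17746, 25613 and 21159 after 120 min. At 240 min it reached 35322, 37419 and 18766. These groups lay wholly above the fasted one. The Hyou1 change from fasted was 0.92 ± 0.21 at 60 min (adjusted p = 0.00557), 1.96 ± 0.21 at 120 min (adjusted p = 1.95e-06) and 2.42 ± 0.21 at 240 min (adjusted p = 4.17e-08), on the log2 scale, and 2.73 ± 0.20 at 240 min without the libraries of conflicting labels.

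Over all 27 libraries Sil1 stayed between 1599 and 2359 normalised counts. Its fasted livers held 2016, 2090 and 2069, its refed 60 min livers 1690, 1898 and 1747, and its caged food 60 min livers 2245, 2359 and 2239. At 60 min the refed values thus lay below, and the caged food values above, all fasted ones. The Sil1 difference of refed from caged food at 60 min was -0.36 ± 0.09 on the log2 scale (adjusted p = 0.0118), the only member called between those groups. Without refed 60 min replicate 1 it was not called (adjusted p = 0.0579). Against fasted, Sil1 was at -0.18 ± 0.09 at refed 120 min (adjusted p = 0.215) and 0.03 ± 0.09 at 240 min (adjusted p = 0.857), or 0.12 ± 0.09 without the libraries of conflicting labels. The 0.03 estimate had a 95% interval from -0.16 to 0.22, and its upper bound lay below the 240 min estimate of each of the other 9 members.

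Among the J-domain proteins, Dnajb9 (ERdj4, ENSMUSG00000014905, chr12:44205559-44210326) had its highest group mean at refed 120 min. Its normalised counts were 1441, 1347 and 1265 in the fasted livers, 1932, 1722 and 2733 at refed 60 min, 2725, 5419 and 3368 at 120 min, and 3973, 3290 and 2984 at 240 min. The highest single value came from refed 120 min replicate 2, and for no other member did the highest refed value fall before 240 min. The Dnajb9 change from fasted was 0.63 ± 0.19 at 60 min (adjusted p = 0.0281), 1.45 ± 0.19 at 120 min (adjusted p = 1.17e-05) and 1.33 ± 0.19 at 240 min (adjusted p = 1.45e-05), on the log2 scale, the last being 1.42 ± 0.21 without the libraries of conflicting labels. The 60 min call did not hold without refed 60 min replicate 3 (adjusted p = 0.197), fasted replicate 2 (0.0803) or fasted replicate 3 (0.106). From 120 to 240 min Dnajb9 changed by -0.12 ± 0.19 (adjusted p = 0.849), the only member with an estimate below 0 for that step.

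Dnajb11 (ERdj3, ENSMUSG00000004460, chr16:22857845-22879634) and Dnajc3 (p58IPK, ENSMUSG00000022136, chr14:118937976-118981697) changed less than Dnajb9 in their estimates from all libraries at refed 60, 120 and 240 min. At refed 60 min neither was called, although all 3 livers lay above all fasted ones for both. Dnajb11 held 3541, 4129 and 3928 normalised counts in the fasted livers, 6030, 7874 and 7024 at refed 120 min, and 10070, 11107 and 6378 at 240 min. Its log2 change was 0.29 ± 0.17 at 60 min (adjusted p = 0.359), 0.85 ± 0.17 at 120 min (adjusted p = 0.00169) and 1.21 ± 0.17 at 240 min (adjusted p = 2.08e-05). Dnajc3 went from 10054, 11162 and 10682 in the fasted livers to 13115, 17567 and 14752 at 120 min and 20298, 23558 and 14471 at 240 min. All 3 livers of either late time lay above the fasted ones, but the steps were small. Its log2 change of 0.50 ± 0.14 at 120 min (adjusted p = 0.0150) was lost without fasted replicate 1 (adjusted p = 0.0618) or refed 120 min replicate 2 (0.101). At 240 min it was 0.84 ± 0.14 (adjusted p = 8.06e-05), a ratio of 1.79, the smallest of the 9 members that rose. Without the libraries of conflicting labels the 240 min changes were 1.45 ± 0.16 for Dnajb11 and 1.04 ± 0.13 for Dnajc3. Dnajb11 then no longer lay below Dnajb9, which was at 1.42 ± 0.21.

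Sdf2l1 (ENSMUSG00000022769, chr16:17130138-17132383), the partner of the Dnajb11 protein, rose far more than Dnajb11 itself. Fasted livers held 513, 605 and 564 normalised counts, refed 60 min livers 1304, 1037 and 989, and refed 120 min livers 2493, 4556 and 3789. The 240 min values were 6228, 7252 and 2627. The Sdf2l1 change was 0.98 ± 0.36 at 60 min, which did not pass (adjusted p = 0.0880), although all 3 livers lay above all fasted ones. It was 2.65 ± 0.36 at 120 min (adjusted p = 2.29e-05) and 3.13 ± 0.36 at 240 min (adjusted p = 1.18e-06), an 8.77-fold ratio, and 3.58 ± 0.36 at 240 min without the libraries of conflicting labels. The close paralog Sdf2, which was not a member, was at 0.10 ± 0.07 on the log2 scale at 120 min (adjusted p = 0.419).

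Hsp90b1 (ENSMUSG00000020048, chr10:86690209-86705509) rose less than Hspa5 in its estimates. Its values were 21926, 28522 and 27364 normalised counts in the fasted livers, 46216, 55527 and 51023 at refed 120 min, and 93728, 101259 and 43339 at 240 min. The library of conflicting labels, at 43339, lay below all 3 of the 120 min livers. The Hsp90b1 change was 0.41 ± 0.24 at 60 min (adjusted p = 0.347), 0.98 ± 0.24 at 120 min (adjusted p = 0.00755) and 1.53 ± 0.24 at 240 min (adjusted p = 6.21e-05). Without the libraries of conflicting labels the 240 min change was 1.92 ± 0.20.

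Manf (ENSMUSG00000032575, chr9:106838312-106891979) and Creld2 (ENSMUSG00000023272, chr15:88819646-88826683), the small soluble members, were among those with the largest changes. Manf held 1707, 2191 and 2162 normalised counts in the fasted livers, 5081, 3830 and 4141 at refed 60 min, 7589, 11437 and 9446 at 120 min, and 15963, 16674 and 8486 at 240 min. Its log2 change was 1.11 ± 0.26 at 60 min (adjusted p = 0.00548), 2.22 ± 0.26 at 120 min (adjusted p = 3.33e-06) and 2.71 ± 0.26 at 240 min (adjusted p = 9.59e-08). Creld2 went from 850, 1124 and 946 to 3393, 2281 and 2579 at 60 min, 4867, 9586 and 7103 at 120 min, and 13142, 16000 and 4734 at 240 min. Every refed liver from 60 min on was above every fasted one for both genes. The Creld2 change was 1.49 ± 0.33 at 60 min (adjusted p = 0.00404), 2.84 ± 0.33 at 120 min (adjusted p = 3.79e-06) and 3.37 ± 0.33 at 240 min (adjusted p = 1.57e-07), a 10.3-fold ratio. Without the libraries of conflicting labels the 240 min changes were 3.02 ± 0.26 for Manf and 3.91 ± 0.29 for Creld2. Creld2 also spread most at 240 min, where the mean of replicates 1 and 2 was 3.08 times replicate 3, against 1.22 times for Dnajb9.

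**Figure D1:**
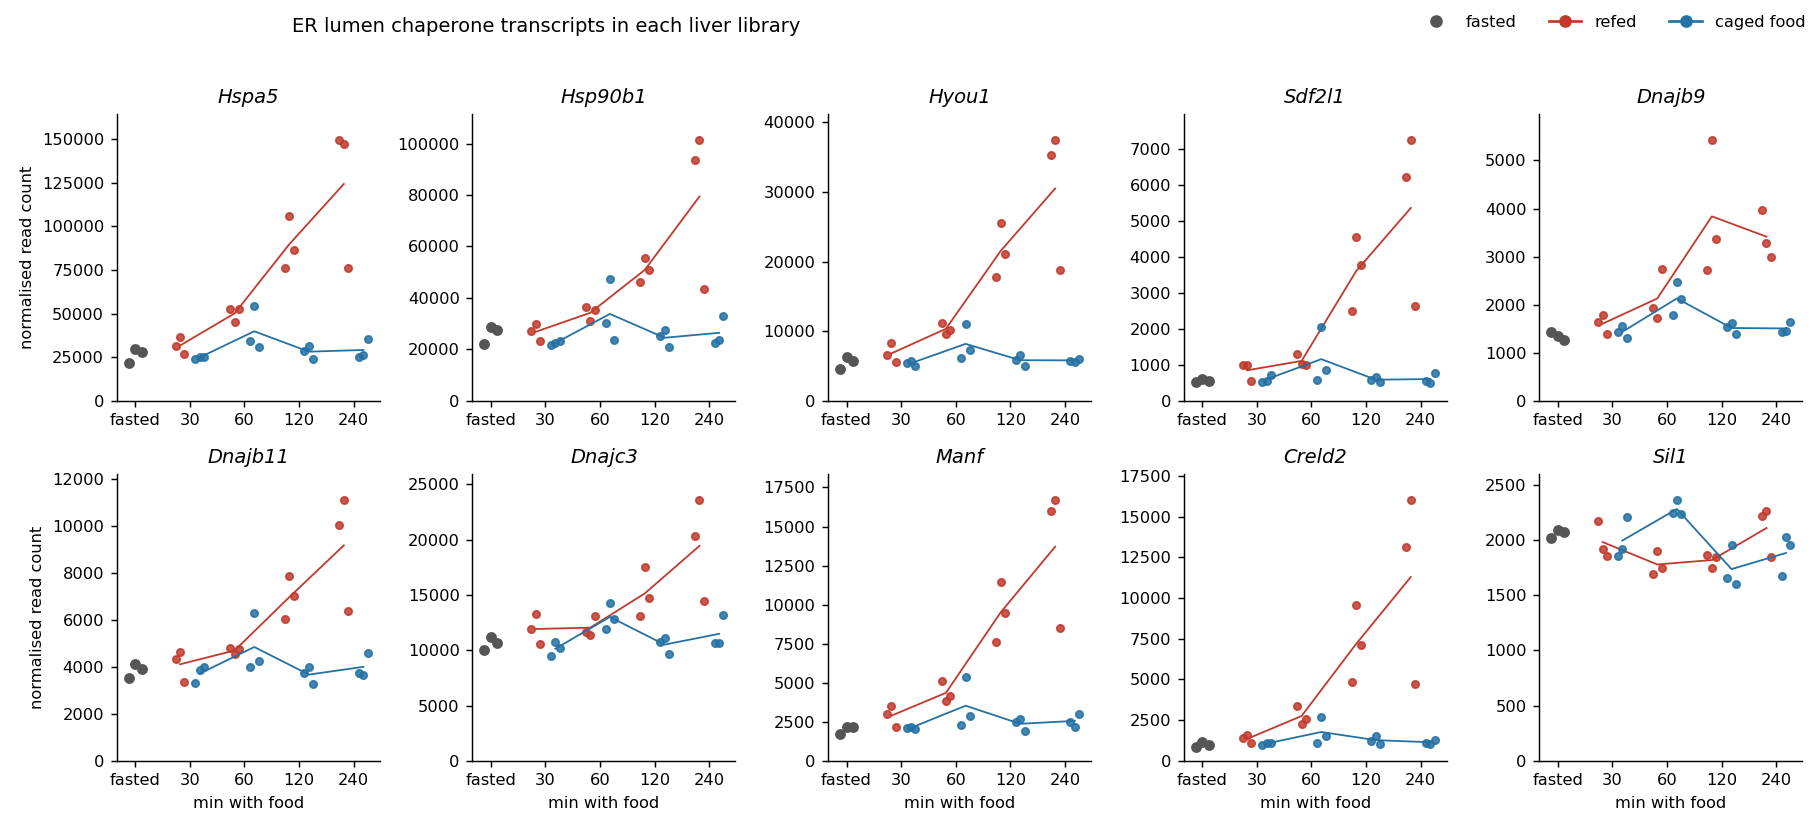
Normalised read counts (each axis starting at 0) of the 10 members in each of the 27 liver libraries, with points for libraries and lines joining group means over time with food. The group means of all members but Dnajb9 rise in the refed livers (red) from 60 to 120 and to 240 min, and that of Dnajb9 is highest at 120 min. Sil1 stays between 1599 and 2359 counts in all libraries, and 1 caged food liver (blue) at 60 min stands above the other caged food livers.

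Counting the set as a whole, refeeding for 30 min gave no call in any member. The missing calls do not show an absence of change. The confidence interval of the Sdf2l1 change at that time ran from -0.20 to 1.29 on the log2 scale, and that of Manf from -0.04 to 1.03. By limma 0 of 10 were called against fasted, with 0 at an unadjusted p under 0.05, where 1.63% of all tested genes were called in either direction. Replicates 1 and 2 of that group were above all fasted livers for 9 members each, and replicate 3 for 0. At 60 min 5 of 10 were called higher (Hspa5, Hyou1, Dnajb9, Manf and Creld2) against 7.26% of tested genes. All 3 refed livers exceeded all 3 fasted ones for 9 of 10 members at that time, against 15.1% of tested genes. At 120 min 9 of 10 were called higher against 7.95%, and at 240 min the same count, 9 of 10, against 12.9%. The member not called at either time was Sil1. With the 2 libraries of conflicting labels left out, 9 of 10 were again called higher at 240 min, against 11.2%. With these 2 grouped by their treatment field instead, 0 were called at 60 min, where 5.66% of tested genes were called. The count was then 6 at 120 min (not Hsp90b1, Dnajb11 and Dnajc3), against 4.82%, and 0 at 240 min, where no tested gene was called. No 60 or 120 min library moves under this grouping, and the estimates there were unchanged (Hspa5 at 60 min 0.94 in both). The calls at these 2 times changed through the spread, which is shared over all 27 libraries. The median change of the 10 members was 0.25, 0.77, 1.61 and 1.86 on the log2 scale at the 4 times, while that of all tested genes lay between -0.016 and 0.005.

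Set against the preceding time, the steps show when the set moved. From 30 to 60 min 0 of 10 were called, with 5 at an unadjusted p under 0.05, where 5.83% of tested genes were called in either direction. From 60 to 120 min 6 of 10 were called higher (Hspa5, Hyou1, Sdf2l1, Dnajb9, Manf and Creld2) against 2.17% of tested genes. That count was 2 without refed 60 min replicate 2, 3 without refed 60 min replicate 3 and 2 without refed 120 min replicate 2. Without 1 library of these groups in turn, 357 to 799 of all genes were called in either direction, beside 750 with all libraries. From 120 to 240 min 0 of 10 were called, with 5 at an unadjusted p under 0.05, where 1.76% of tested genes were called in either direction. Without refed 240 min replicate 3 the count for this step was 5. For this step 92 to 357 of all genes were called without 1 library in turn, beside 281 with all libraries. By 60 min the change of Dnajb9 had reached 47.3% of its 240 min change on the log2 scale, and those of Creld2 and Hspa5 44.2% and 42.8%. Dnajc3 was at 21.2% and Dnajb11 at 23.6%. By 120 min the same share ran from 59.4% in Dnajc3 to 109% in Dnajb9.

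**Figure D2:**
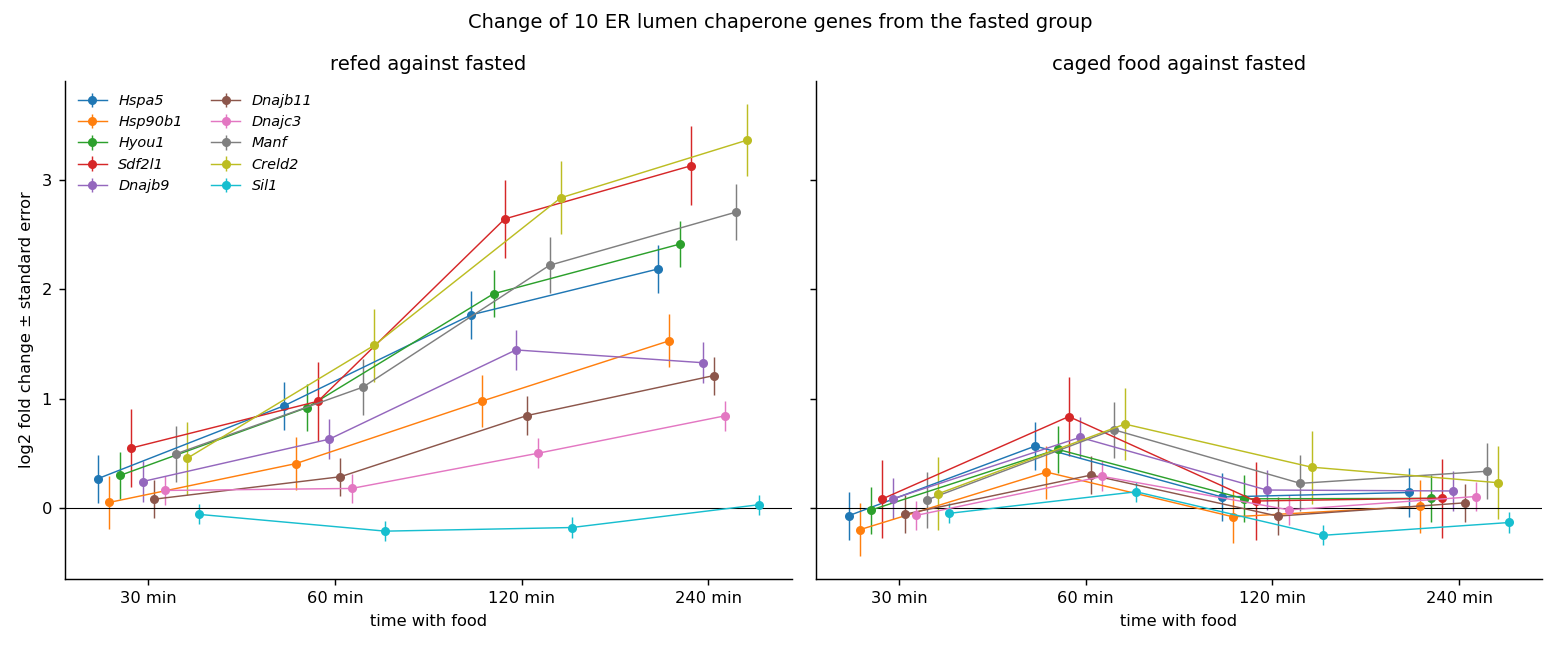
Log2 fold change of each member from the fasted group (points, with standard errors as bars) at 30, 60, 120 and 240 min, for refed livers on the left and caged food livers on the right, both set against the same 3 fasted livers. On the left Creld2 and Sdf2l1 end highest, at 3.37 and 3.13, and Sil1 ends at 0.03; on the right the points of 60 min stand above those of the other times.

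The caged food groups gave no call in any member against fasted. At 30 min 0 of 10 were called and 0 had an unadjusted p under 0.05, with 0.0126% of tested genes called in either direction. The same counts were 0 and 1 at 120 min, against 0.0377% of tested genes, and 0 and 0 at 240 min, where no tested gene was called. The member with a low unadjusted p at 120 min was Sil1, at -0.25 ± 0.09 on the log2 scale (adjusted p = 0.478), with all 3 livers (1656, 1954 and 1599 normalised counts) below the fasted ones.

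At 60 min of caged food the set stood higher without reaching a call. Again 0 of 10 passed, where 0.220% of tested genes were called, but 7 of 10 had an unadjusted p under 0.05 and the median change was 0.55 on the log2 scale. The smallest adjusted p was 0.175, for Dnajb9, whose caged food livers held 1788, 2477 and 2125 normalised counts, all above the fasted livers. Its log2 change was 0.65 ± 0.19, beside 0.63 ± 0.19 at refed 60 min against the same fasted livers. All 3 caged food livers exceeded all 3 fasted ones for 5 of 10 members (Hspa5, Dnajb9, Dnajc3, Manf and Sil1), against 7.73% of tested genes. Much of the height came from replicate 2. It held the highest value of the 15 fasted and caged food libraries for all 10 members, and it was above all 3 refed 60 min livers for 7 of them. For Sdf2l1 it held 2055 normalised counts beside 567 and 857 in replicates 1 and 3, and for Creld2 2715 beside 1100 and 1495.

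Replicate 2 was also the library with the most Kupffer cell and leukocyte transcripts. The summed Kupffer cell markers were 11810, 32714 and 14049 normalised counts in caged food 60 min replicates 1 to 3, and the leukocyte markers 477, 2338 and 590. All 7 Kupffer cell markers were above 0 in each, with Clec4f at 3476, 8133 and 3937 and Cd5l at 3714, 10676 and 4434. Its plasma and B cell markers summed to 1090, beside 357 and 446, and of these Tnfrsf17 was at 0 in replicate 2. The part of these cells in the member values was not tested. Without replicate 2 the median change of the members at caged food 60 min was 0.31, 1 of 10 had an unadjusted p under 0.05 and the smallest adjusted p was 0.364. Replicates 1 and 3 were above all fasted livers for 6 and 9 members. The fall from 60 to 120 min of caged food was called for 1 of 10 members, Sil1 (-0.40 ± 0.09, adjusted p = 0.0350, with 0.565% of tested genes called lower), and for 0 without replicate 2. From 30 to 60 min 0 were called and 8 had an unadjusted p under 0.05, with 0.169% of tested genes called in either direction. From 120 to 240 min 0 were called and 0 had such a p, with 0.245% of tested genes called.

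**Figure D3:**
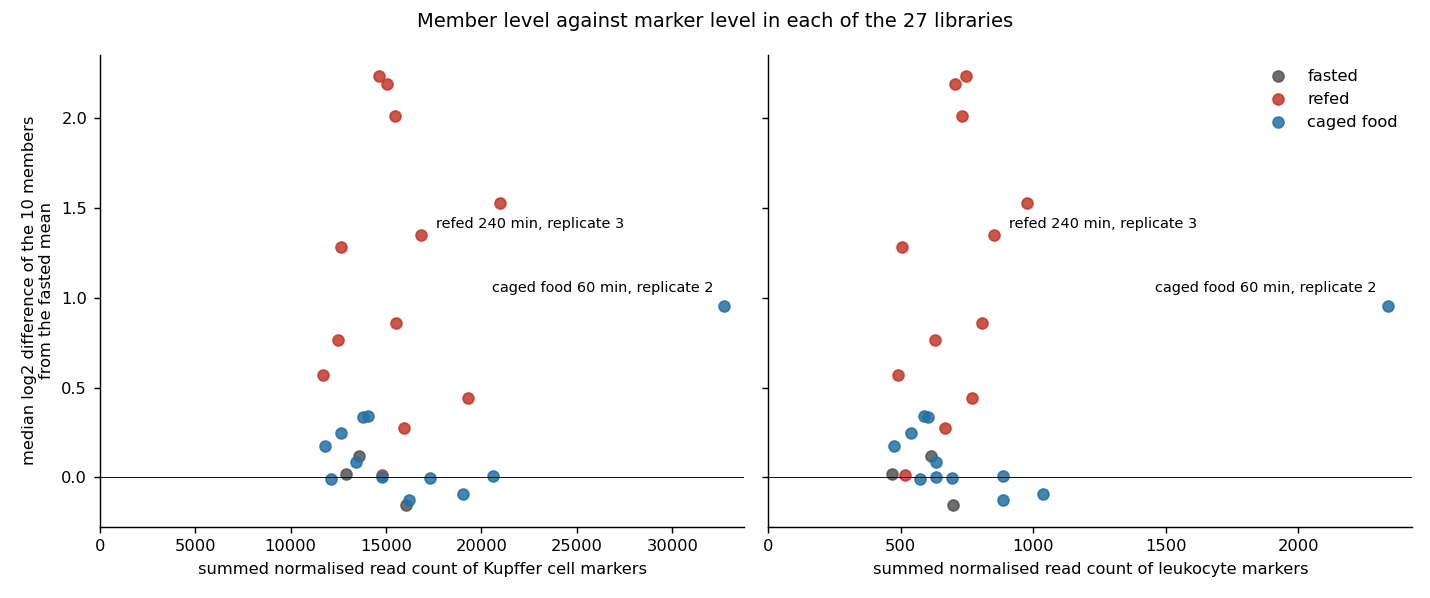
Median log2 difference of the 10 members from the fasted mean (vertical) against the summed normalised read count of 7 Kupffer cell markers (left) and 8 leukocyte markers (right), 1 point per library, for 3 fasted, 12 refed and 12 caged food livers. Caged food 60 min replicate 2 lies alone at 32714 and 2338, while the refed 120 and 240 min livers are high at marker sums of 12617 to 20962 and 505 to 976.

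Other marker sums were set beside the late rise as well. At refed 240 min the Kupffer cell markers summed to between 14603 and 16837 normalised counts, beside 12887 to 16056 in the fasted livers. The leukocyte markers summed to 705 to 854 beside 469 to 698, higher in all 3 livers, and their part in the result was not tested. Sums wholly below the fasted range were those of the 6 sinusoidal endothelial markers (18810 to 19661 beside 20027 to 23383) and of the 6 stellate cell markers (11087 to 14517 beside 14839 to 16756), with 1 marker of each called lower, and their part was not tested either. The 8 plasma and B cell markers, from cells rich in ER chaperones, summed to 385 to 521 beside 500 to 600. The 10 pancreatic acinar markers summed to 393 to 487 beside 353 to 412, with 0 to 6 and 3 to 8 of the 10 at 0. In replicate 1 of refed 120 min and of refed 240 min 0 of the 10 were at 0. The part of acinar transcripts in the member values was not tested. Refed 30 min replicate 1, at 6408, was the only library with an acinar sum above 710. Hepatocyte markers summed to 4047741 to 5052787 at refed 240 min and to 4959655 to 5740865 in the fasted livers, and these ranges overlapped.

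Eating and perceiving food were then compared at each time. At 30 min 0 of 10 members were called between refed and caged food and 0 had an unadjusted p under 0.05, where 0.276% of tested genes were called in either direction. At 60 min 1 of 10 was called, Sil1, lower in the refed livers, where 4.18% of tested genes were called lower. No member was called higher, where 6.73% of tested genes were, and with 10 members both counts are near these shares. The median refed minus caged food difference of the members was 0.11 on the log2 scale. The estimate for Creld2 was 0.72 ± 0.33 (adjusted p = 0.185) with a 95% interval from 0.03 to 1.41, and that for Hspa5 was 0.37 ± 0.22 with an interval from -0.08 to 0.83. Without caged food replicate 2 the median difference was 0.48 and Creld2 was called higher (1.08 ± 0.34, adjusted p = 0.0460).

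At 120 min the refed livers were above the caged food livers in 9 of 10 members, against 5.98% of tested genes called higher, and at 240 min in 9 of 10 against 14.6%. In each of these 9 at both times all 3 refed livers exceeded all 3 caged food livers, which held for 15.6% and 21.3% of tested genes. The differences at 240 min were 2.04 ± 0.22 for Hspa5, 1.51 ± 0.24 for Hsp90b1, 2.33 ± 0.21 for Hyou1 and 3.04 ± 0.36 for Sdf2l1 on the log2 scale. They were 1.17 ± 0.19 for Dnajb9, 1.16 ± 0.17 for Dnajb11, 0.74 ± 0.14 for Dnajc3, 2.37 ± 0.26 for Manf and 3.14 ± 0.33 for Creld2. The adjusted p of these 9 ran from 4.88e-08 (Hyou1) to 0.000283 (Dnajc3). Without the libraries of conflicting labels the differences were 2.27 ± 0.22 for Hspa5, 1.80 ± 0.22 for Hsp90b1, 2.64 ± 0.22 for Hyou1, 3.44 ± 0.39 for Sdf2l1 and 1.23 ± 0.23 for Dnajb9. They were then 1.36 ± 0.18 for Dnajb11, 0.88 ± 0.14 for Dnajc3, 2.68 ± 0.28 for Manf, 3.65 ± 0.32 for Creld2 and 0.17 ± 0.10 for Sil1, and the same 9 were called. Grouped by treatment field, 6 were called at 120 min, where 2.36% of tested genes were called, and 0 at 240 min, against 0.00628%. The 120 min estimates were the same under that grouping, as no library of that time moved. Ranked by log2 difference among the 15932 genes, with all libraries, Creld2 stood at 9, Sdf2l1 at 10, Manf at 29, Hyou1 at 33 and Hspa5 at 59, so the set supplied 2 of the 10 genes with the largest rise. Sil1 stood at 5155, with 0.16 ± 0.09 (adjusted p = 0.207). An F test asked whether the refed minus caged food difference varied over the 4 times, and it was passed by 10 of 10 members, against 9.97% of tested genes.

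The order of the members was then compared. Levels were set beside each other per kb of merged exon in GENCODE M21. In the fasted livers Hsp90b1 (6433 ± 873 normalised counts per kb, SD) and Hspa5 (6232 ± 1003) overlapped at the top. Dnajc3 (2068 ± 108) and Dnajb11 (1195 ± 92) followed, each apart from its neighbours. Hyou1 (762 ± 115) overlapped Creld2 (713 ± 102), and below them Sil1 (599), Manf (573), Dnajb9 (530) and Sdf2l1 (506) each overlapped the next. Sil1 and Sdf2l1, close in the fasted state, were far apart after 240 min of refeeding, at 614 and 4846 per kb. Hspa5 then led at 29392 per kb, above Hsp90b1 at 19703, with Creld2 in the third place at 8266, but the libraries of each of the first 7 members overlapped those of the next. Dnajb9 (1340) and Sil1 were the lowest and apart from their neighbours. In replicates 1 and 2 alone the order of the means was the same, and of these neighbours only Manf and Dnajc3 overlapped. All 10 members summed to 0.177% ± 0.018 of the normalised counts in the fasted livers, 0.288% ± 0.025 at refed 60 min, 0.505% ± 0.084 at 120 min and 0.705% ± 0.237 at 240 min (SD, n = 3), where the single libraries were at 0.815%, 0.867% and, for replicate 3, 0.433%. Caged food livers lay at 0.168% to 0.232% in the group means.

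**Figure D4:**
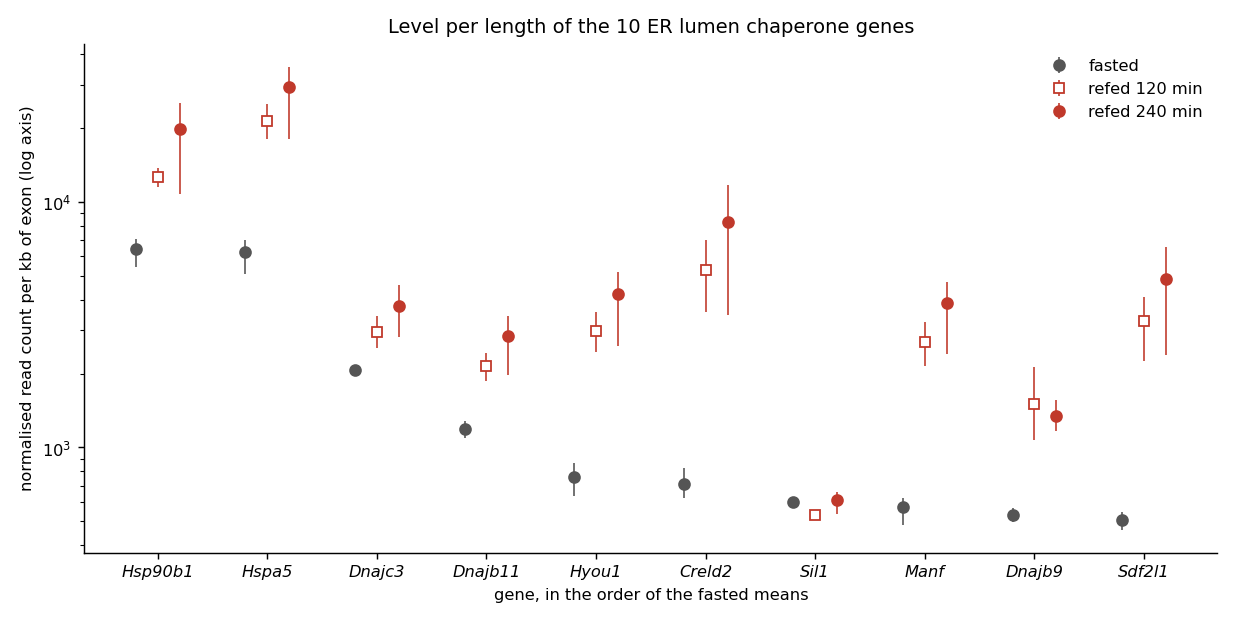
Mean normalised read count per kb of exon (log axis) of each member in fasted, refed 120 min and refed 240 min livers, with bars from the lowest to the highest of 3 libraries. Dnajc3 and Dnajb11, whose means lie above those of Creld2 and Sdf2l1 in the fasted livers, have means below them at 240 min, where the bars are wide, and Sil1 is at 599 and 614 in the fasted and refed 240 min livers.

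Some groups had the same library on top for most rising members, and others did not. Among the refed 120 min livers replicate 2 was highest and replicate 1 lowest in all 9 rising members, and at caged food 120 min replicate 2 was highest and replicate 3 lowest in all 10. At refed 60 min replicate 1 was highest in 7 of the 9 and replicate 3 in 2, and at caged food 30 min replicate 2 was highest in 5 and replicate 3 in 4. The correlation of a member with the mean of the other 9 over the 27 libraries was 0.92 to 0.99 for the rising members and 0.14 for Sil1. These points share the refed rise. Over the 15 fasted and caged food libraries it was 0.84 to 0.96 for the same 9 and 0.53 for Sil1, and over 14 of them, without caged food 60 min replicate 2, it was 0.64 to 0.92 and 0.36. All values of a library also share its depth and scaling.

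Of 11973 genes with a mean of at least 50 normalised counts, those with profiles most like the mean of the 10 members over the 27 libraries included Pdia4 (Pearson r = 0.980), Tmed9 (0.976), Slc35b1 (0.967) and Sec23b (0.963). Pdia4 encodes an ER disulfide isomerase, Tmed9 a cargo receptor of the early secretory pathway, and Sec23b a subunit of the COPII coat. Pdia4 also stood first for Hspa5 alone (0.968), ahead of Sec23b (0.965). For Sil1 the highest value was 0.825, with Lmf1, an ER protein needed for lipase maturation.

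Other genes of ER protein folding were read from 7 lists. Of 12 sensors and transcription factors of the unfolded protein response, 3 rose at refed 60 min, 7 rose and 1 fell at 120 min, and 9 rose and 1 fell at 240 min. Of all tested genes 7.26%, 7.95% and 12.9% were called higher at 60, 120 and 240 min, which is the background for the counts of each list here, and 6.13% were called lower at 120 min and 11.4% at 240 min. Ddit3, encoding CHOP, was at 1.78 ± 0.21 on the log2 scale at 120 min, Xbp1 at 0.85 ± 0.11, Eif2ak3, encoding PERK, at 0.93 ± 0.14 and Ern1, encoding IRE1 alpha, at 0.61 ± 0.09, all called. Ddit3 and Xbp1 had most of that change by 60 min, at 1.65 ± 0.21 and 0.77 ± 0.11. Counts per gene do not separate spliced from unspliced Xbp1. The gene that fell at both late times was Creb3l3, a hepatocyte ER-bound transcription factor, at -0.38 ± 0.10 at 120 min. Of 21 disulfide isomerases and lectin chaperones, 1, 8 and 13 rose at 60, 120 and 240 min and 0 fell, the 60 min count being a smaller share than the background of 7.26%. Pdia4 was at 1.16 ± 0.21, Pdia6 at 0.80 ± 0.20, Txndc11 at 0.74 ± 0.12 and Canx, encoding calnexin, at 0.44 ± 0.10 at 120 min, on the log2 scale.

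Of 12 other BiP cofactors and modifiers, 1, 3 and 7 rose at the 3 times, beside 7.26%, 7.95% and 12.9% of all tested genes, and 1 fell at 240 min (Dnajc16), beside 11.4%. The single calls at 60 min and of Dnajc16 are near or below those shares. Ficd, whose product AMPylates BiP, was at 0.99 ± 0.12 at 120 min and Hspa13 at 0.92 ± 0.15. Of 8 ER prolyl isomerases 0 were called at 60 and 120 min and 2 rose at 240 min (Ppib, 0.63 ± 0.11, and Fkbp11, 0.59 ± 0.22). Of 3 KDEL receptors, which return lumen proteins from the Golgi, Kdelr2 alone was called, at 120 min (0.52 ± 0.08) and at 240 min (0.88 ± 0.08). Of 13 genes of ER-associated degradation 1, 6 and 8 rose, with Syvn1, encoding the ubiquitin ligase HRD1, at 0.81 ± 0.18, 1.84 ± 0.18 and 1.78 ± 0.18. Of the 11 Hsp70, Hsp110 and Hsp90 genes of the cytosol and mitochondria 8, 6 and 7 were called higher at the 3 times. Hsph1 was at 2.14 ± 0.18 at 60 min and 2.13 ± 0.18 at 240 min, and Hspa1b at 3.86 ± 0.41 and 2.61 ± 0.41. The copies Hspa1a and Hspa1b are nearly identical, so reads may be split between them.

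At caged food 60 min 1 gene of these 7 lists was called, Herpud1, encoding a membrane component of ER-associated degradation. Its caged food livers held 28966 ± 2453 normalised counts, lowest 26317, while its fasted livers held 13727 ± 4083 and its refed 60 min livers 13255 ± 2814 (SD, n = 3). The change from fasted was 1.12 ± 0.24 on the log2 scale (adjusted p = 0.0467), and refed 60 min, against the same fasted livers, was at -0.02 ± 0.24 (adjusted p = 0.971). Without caged food replicate 2 it was 1.19 ± 0.27 and not called (adjusted p = 0.0784).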

How the data were processed

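Per the submitters' processing notes, reads were handled with STAR 2.4.0a and featureCounts 1.4.5-p1 on mm10 (GRCm38), from libraries of a stranded mRNA kit. The deposited values are counts divided by a factor per library and rounded, a score rather than raw counts. The authors' scaling method and the strand setting are not given in the sources used here. The design text speaks of 60 samples, and those beyond the 27 are not analysed here. Groups came from the titles.

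Values were tested as log2(value + 1) with limma 3.58.1 in R 4.3.3 (trend over mean level, 9 group means over all 27 libraries) on genes with at least 10 in at least 3 libraries. P-values were Benjamini-Hochberg adjusted over 15932 genes, and adjusted p under 0.05 was called. An exact permutation test of 3 against 3 cannot go below 0.10 and was not used. The members, lists and the rule for named genes (members, up to 4 per list by lowest p at refed 120 min, and the 5 nearest profiles, 3 for single members) were chosen with earlier results of these data known. A gene among the nearest profiles is not reported here. Xbp1 splicing was not analysed, and other listed genes named here were chosen after their values were seen. Steps were tested on simulated data. The alternatives are given at the end.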

Additional observations from a re-analysis of the deposited data

Results flagged for a closer look

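The refed minus caged food difference varied over the 4 times for all 10 members by limma's F test. The adjusted p was 0.00068 for Hspa5, 0.0168 for Hsp90b1, 0.000114 for Hyou1 and 0.000594 for Sdf2l1. It was 0.00178 for Dnajb9, 0.00417 for Dnajb11 and 0.0223 for Dnajc3, the J-domain proteins. Manf gave 0.000629 and Creld2 0.000595. For these 9 the estimates at 120 and 240 min were all above those at 30 and 60 min. Sil1 gave 0.0373, with estimates of -0.01, -0.36, 0.07 and 0.16 on the log2 scale at the 4 times, the 60 min estimate being its lowest.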

How the results depend on the processing

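Of 120 member changes in the 12 comparisons at single times, 42 were called and 0 of these changed sign under any alternative. Of the uncalled ones 27 changed sign under at least 1, all with a main size of at most 0.14 on the log2 scale. Leaving out 1 library ended 4 calls and grouping by treatment label 29. Grouped by treatment label, which moves refed 240 min replicate 3 and caged food 240 min replicate 1 into each other's groups, 0 members were called at refed 60 min, refed 240 min against fasted and against caged food, refed 120 against 60 min, caged food 120 against 60 min and the F test, and 6 at refed 120 min against fasted and against caged food. Of all tested genes 5.66% were then called at refed 60 min against fasted. At refed 120 min 4.82% were called against fasted and 2.36% against caged food. Comparisons without a 240 min group keep their estimates under this grouping, and only the shared spread differs. With both libraries left out, 3 members were called for refed 60 against 30 min and 3 for 240 against 120 min.

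For refed against caged food at 60 min, 2 members were called with quantile normalization, 2 without caged food 60 min replicate 2, 0 with only the groups compared and 0 with quality weights per library. Leaving out that library and the weights were chosen after seeing the data. For refed 60 against 30 min the counts were 1 with quantile normalization, 2 with only the groups compared, 2 without that library and 1 with weights. Weights gave 1 for refed 240 against 120 min. The single call for caged food 120 against 60 min became 0 under quantile normalization, no filter, only the groups compared, leaving out the 4 libraries with pancreatic transcripts, leaving out caged food 60 min replicate 2, and weights. The replicate numbers did not pair the libraries (mean correlation -0.0094 over 108 pairs, 8 of 27 libraries closest to their own number). With the replicate number as a block the counts were 5, 9 and 9 at refed 60, 120 and 240 min against fasted, 7 for refed 120 against 60 min, and equal to the main ones elsewhere.

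Without 1 library each in turn, the counts ran from 4 to 5 for refed 60 min against fasted, 0 to 2 for refed against caged food at 60 min, 8 to 9 at refed 120 min against either group, 2 to 6 for refed 120 against 60 min, 0 to 5 for 240 against 120 min, 0 to 1 for caged food 120 against 60 min and 7 to 10 for the F test. Signs turned at 60 min between refed and caged food for uncalled members: Hsp90b1 ran from -0.15 to 0.35, Sdf2l1 from -0.27 to 0.66, Dnajb9 from -0.21 to 0.12 and Dnajb11 from -0.14 to 0.19. Without caged food 60 min replicate 2 Dnajb9 was at 0.099 and Dnajb11 at 0.19, Dnajb11 was at 0.030 with quantile normalization and 0.073 with weights, and Dnajc3 at 0.015 with quantile normalization. Sil1 at refed 240 min against fasted ran from -0.025 to 0.12, and was at -0.021 with quantile normalization, -0.019 by treatment label and -0.0089 without the 4 libraries chosen earlier for pancreatic transcripts, of which only replicate 1, with an acinar marker sum of 487, belongs to these 2 groups. The cause was not tested. Quantile normalization moved the median of all genes by at most 0.022. The lowest member value in any library was 495, and how the calls depend on depth or on the number of libraries was not tested.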

Other observations

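The ERSE letters of the Hspa5 promoter were also found in the windows of 15 tested genes outside the set. At refed 120 min 7 of these 15 were called higher than fasted and 0 lower, where 8.63% of the 11165 tested genes with a window outside the set, these 15 among them, were called higher. The 7 were Syvn1, Alg12, Canx, Hnrnpa3, Pdia6, Acnat2 and Calr, chosen after their values were seen. Syvn1 was at 1.84 on the log2 scale, Alg12, an ER mannosyltransferase gene, at 1.29, Acnat2 at 1.23 and Calr, encoding calreticulin, at 0.59. The 8 not called included Derl3 (1.90, adjusted p = 0.0947) and the lipid enzyme gene Acacb (-0.21, adjusted p = 0.640). The median of the 15 was 0.44 at refed 120 min and 0.03 at caged food 120 min, where 0 were called. At caged food 60 min 0 were called and the median was 0.29. Several of these genes are folding genes named above, so the 2 counts overlap.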
